A study of Mus musculus with 6 samples.

Results

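The 9 transcription factor genes Neurog3, Neurod1, Pax4, Pax6, Isl1, Insm1, Nkx2-2, Rfx6 and Foxa2 of the enteroendocrine lineage were followed in RNA from mouse small intestinal mucosa. They were listed by name, with earlier results of these data known, and all 9 were found among the 38561 Ensembl genes of the count tables. The study compared scraped mucosa of C57BL/6J mice with an intestine-specific knockout of Rbm47, called Rbm47-IKO, and of wild-type mice, called wt in the sample labels and Rbm47-floxed controls in the methods. Each genotype had 3 RNA pools, and by the labels each pool held RNA of 3 mice of both sexes aged 8 to 12 weeks. Deletion was driven by Cre under the villin promoter, which is active in the epithelium, so that muscle, nerve and immune cells of the scraping keep the gene. The labels name no treatment for either group.

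Enteroendocrine cells are scattered hormone-producing cells of the gut epithelium. They arise in the crypt from secretory progenitors that express Atoh1, and Notch signalling through the repressor Hes1 holds progenitors back from this fate. A short pulse of the basic helix-loop-helix factor Neurog3 commits a progenitor to the endocrine lineage. Neurod1, Insm1, Pax4, Pax6, Isl1, Nkx2-2, Rfx6 and Foxa2 then act in the differentiating or mature cells, where they control which hormone genes are used. RBM47 binds RNA and is known as a cofactor of the enzyme that edits apolipoprotein B mRNA.

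The promoter windows of Neurog3, Pax6 and Rfx6 are shown because these 3 genes were the members whose pools did not overlap between genotypes, a pattern in this direction that 11.6% of all tested genes had. The RefSeq windows (build GRCm38.p6, plus strand) are printed from 250 bases before the annotated start to 30 bases after it. Capitals mark GGCAAC, the reverse complement of GTTGCC, a half-site of RFX factors.
Neurog3, chr10:62132840-62133119: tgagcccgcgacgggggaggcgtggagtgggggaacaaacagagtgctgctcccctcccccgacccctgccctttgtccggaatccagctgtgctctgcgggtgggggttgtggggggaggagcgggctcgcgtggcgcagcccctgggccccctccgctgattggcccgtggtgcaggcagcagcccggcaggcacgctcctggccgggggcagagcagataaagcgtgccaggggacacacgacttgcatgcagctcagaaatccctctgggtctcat
Pax6, first annotated start, chr2:105668646-105668925: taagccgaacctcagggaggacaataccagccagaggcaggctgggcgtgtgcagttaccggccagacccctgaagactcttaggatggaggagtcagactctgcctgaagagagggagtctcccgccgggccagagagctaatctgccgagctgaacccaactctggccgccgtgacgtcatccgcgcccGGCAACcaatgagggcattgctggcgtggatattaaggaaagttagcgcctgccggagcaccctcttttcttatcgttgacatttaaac
Rfx6, chr10:51685268-51685547: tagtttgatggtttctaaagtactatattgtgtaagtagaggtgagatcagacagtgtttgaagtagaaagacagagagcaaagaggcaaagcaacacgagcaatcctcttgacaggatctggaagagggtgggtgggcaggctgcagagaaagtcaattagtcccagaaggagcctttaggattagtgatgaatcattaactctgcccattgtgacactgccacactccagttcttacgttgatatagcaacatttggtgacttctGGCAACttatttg
The half-site begins 59 bases before the first annotated start of Pax6 and at base 18 of Rfx6, whose RefSeq start lies inside the gene span of the count tables. Another Pax6 window, chr2:105682213-105682492 with a GC content of 47.5%, had no match to the half-site and is not printed. The Neurog3 window had the highest GC content of these 3, 68.9%, against 57.9% in Pax6 and 43.2% in Rfx6. RefSeq windows were found for 7 of the 9 members, 10 windows in all, and Pax4 and Insm1 had no entry. Over both strands and the full windows, GTTGCC was present in 2 of the 10 member windows and in 12.5% of all 32851 windows. CAGATG, the E-box bound by NEUROG3 and NEUROD1, was present in 1 member window, that of Nkx2-2, and in 17.2% of all windows. TGTTTAC, the site of FOXA factors, was present in 0 member windows and in 3.65% of all windows. The matches in member windows did not overlap each other, and a match is a description of the letters only.

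The pools held 31560320 to 38951830 counted reads each. Rbm47 itself had higher levels in the 3 pools with the Rbm47-IKO label, at 603, 625 and 620 CPM (read counts scaled to the effective library size) against 460, 450 and 472 in wt pools. The log2 fold change was 0.42 (standard error, SE, of 0.10, edgeR's Benjamini-Hochberg adjusted p = 0.0751). The counts cover the whole gene, so that a transcript lacking only the deleted part would still be counted. Counts by exon were not examined, and the cause of the higher level was not tested. Since the targeted gene goes against its label, the term IKO-labelled is used throughout, and each direction holds for those labels only. Of the 16425 genes past the expression filter, 443 differed at an adjusted p of 0.05 or less by edgeR, and 0 to 431 did so with 1 pool left out.

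The members were scarce in every pool. All 9 together had 260 to 377 reads per pool, a summed level of 8.64, 9.80 and 7.96 CPM in the IKO-labelled pools and of 11.1, 9.78 and 10.1 CPM in the wt pools. The summed levels overlapped, since the second IKO-labelled pool lay just above the second wt pool. Single members had from 3 reads (Pax4) to 106 reads (Foxa2), and 3 reads corresponded to 0.0790 to 0.0919 CPM. Scraped mucosa is mostly other cells, and in such RNA fewer enteroendocrine cells and less of a transcript per cell cannot be told apart. The filter, which asks for about 10 reads in 3 pools, was passed by 7 of the 9 members, and Neurog3 and Pax4 did not pass. None of the 7 passed an adjusted p of 0.05 with the quasi-likelihood test of edgeR, by which 2.70% of all tested genes were called. At an unadjusted p under 0.05, 1 of the 7 was lower (Pax6), against 8.21% of all tested genes that were lower at that level. DESeq2 called 0 of the 6 members to which it gave an adjusted p (7.95% of all genes), and limma-voom called 0 of 7 (2.62%). The median log2 fold change of the 7 members was -0.34, and that of all tested genes was -0.0059. The median of the members was -0.12 without wt pool 3, -0.21 without IKO-labelled pool 1 and -0.21 with the smooth muscle covariate. Of all 9 members, 7 had a lower mean in the IKO-labelled pools and 2 a higher mean. The 7 include Neurog3 and Pax4, which were not tested, and Nkx2-2 with nearly equal means (0.310 against 0.317 CPM). Among all 16425 tested genes, 8320 had a lower and 8105 a higher point value.

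**Figure D1:**
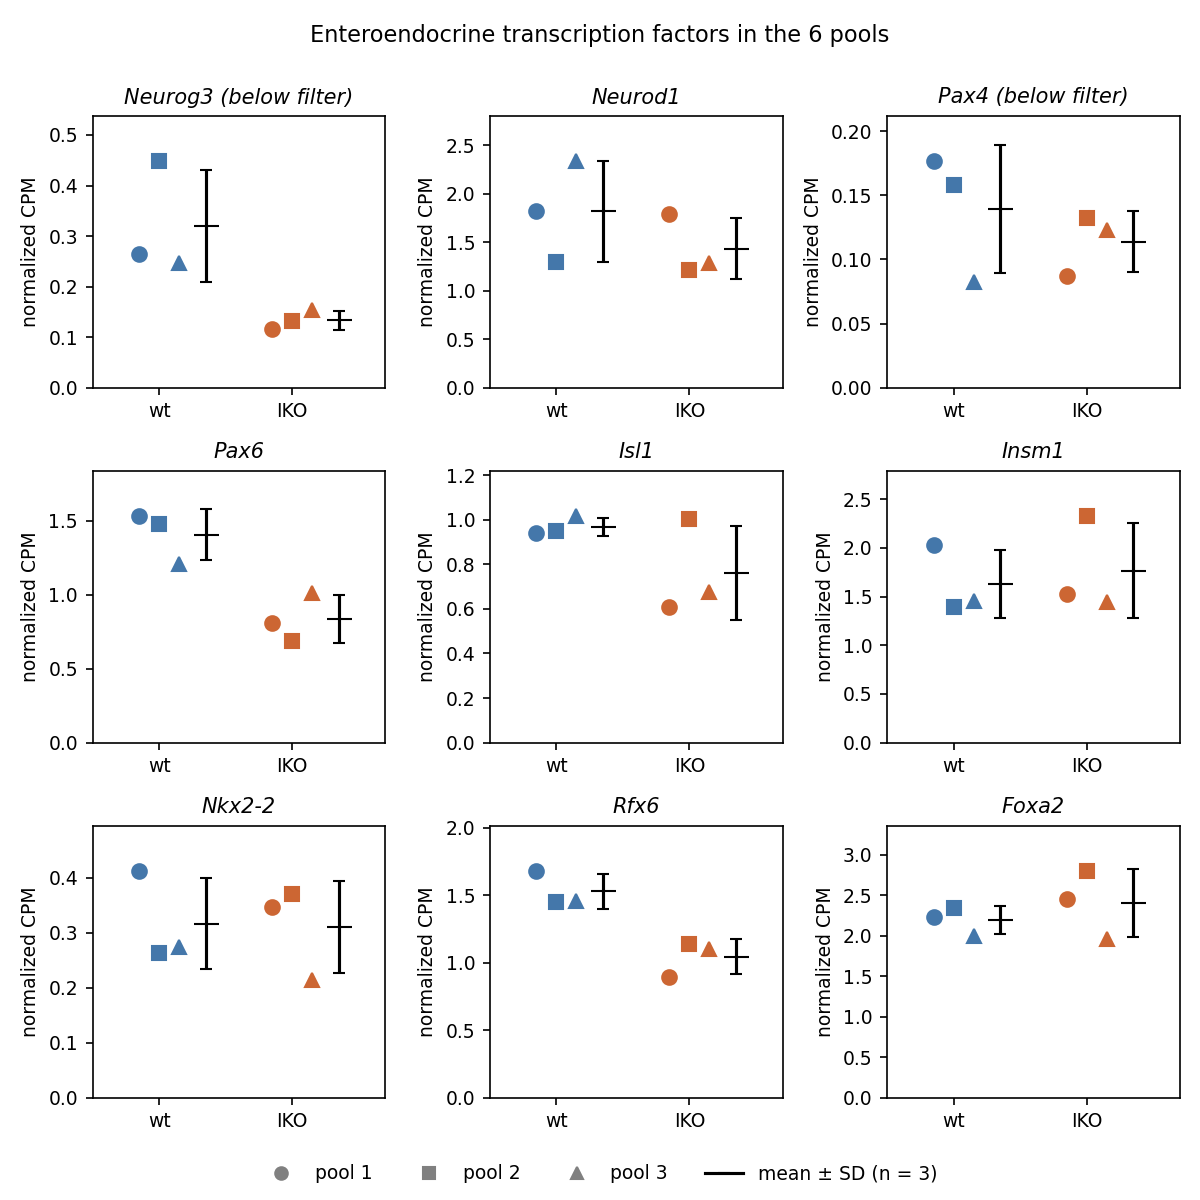
Normalized CPM of each of the 9 genes in the 3 wt and 3 IKO-labelled pools, with 1 panel a gene, symbols for pool numbers, and the mean ± SD (n = 3) at the right of each group. All IKO points lie below all wt points for Neurog3, Pax6 and Rfx6, and the groups overlap for the other 6 genes.

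Neurog3 (ENSMUSG00000044312, chromosome 10, 62133090 to 62134763, plus strand) opens the endocrine programme. It had 4, 5 and 5 reads in the IKO-labelled pools and 9, 17 and 9 in the wt pools. These reads gave 0.116, 0.132 and 0.153 CPM against 0.265, 0.448 and 0.247 CPM. Every IKO-labelled pool was thus below every wt pool, with 14 reads in all against 35. Counting error alone was 24.3 to 50.0% of the value at these depths. Neurog3 was outside the main test. In the edgeR fit without a filter its log2 fold change was -1.24 (unadjusted p = 0.0459, edgeR's adjusted p = 0.422), and the DESeq2 value was -1.26 with an unadjusted p of 0.159 and no adjusted p. The gene shares 273 exon bases with Fam241b on the opposite strand, which had 206 to 353 reads per pool, and the use of strand in counting is not given in the sources used here.

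Neurod1 (ENSMUSG00000034701, chromosome 2, 79452521 to 79456751, minus strand) is a downstream helix-loop-helix factor needed for secretin and cholecystokinin cells. Its level was 1.79, 1.21 and 1.29 CPM in the IKO-labelled pools and 1.82, 1.29 and 2.33 CPM in the wt pools. The groups overlapped, and the third wt pool stood highest. The log2 fold change was -0.34 (SE 0.33, 95% interval -1.10 to 0.42, edgeR's adjusted p = 0.695). It was -0.12 without wt pool 3, and -0.54 both without IKO-labelled pool 1 and without wt pool 2. It shares 201 exon bases with Cerkl on the same strand, which had 7 to 22 reads.

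Pax4 (ENSMUSG00000029706, chromosome 6, 28442334 to 28449353, minus strand), a paired-box repressor active early in the lineage, was near the counting floor. It had 3, 5 and 4 reads in the IKO-labelled pools against 6, 6 and 3 in the wt pools, and the groups overlapped. Counting error alone was 40.8 to 57.7% of the value. In the edgeR fit without a filter the log2 fold change of Pax4 was -0.27 (unadjusted p = 0.694, edgeR's adjusted p = 0.92), and DESeq2 gave -0.28 (unadjusted p = 0.806), so that no difference was detected.

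Pax6 (ENSMUSG00000027168, chromosome 2, 105668896 to 105698410, plus strand) is a paired-box and homeobox factor that activates the glucagon and GIP genes. It had 28, 26 and 33 reads in the IKO-labelled pools and 52, 56 and 44 in the wt pools. The levels were 0.809, 0.686 and 1.01 CPM against 1.53, 1.48 and 1.21 CPM, and the groups did not overlap. The mean was 0.835 ± 0.164 CPM (SD, n = 3) against 1.404 ± 0.172 CPM (SD, n = 3), a log2 fold change of -0.75. The SE was 0.30 and the 95% interval, not adjusted for the number of genes, ran from -1.45 to -0.05. The unadjusted p of edgeR was 0.0384, which ranked 2396 among the genes tested, and the edgeR's adjusted p was 0.263. With the third IKO-labelled pool and the second wt pool left out, the value was -0.88 (edgeR's adjusted p = 0.239), and with any 1 pool left out it lay between -0.90 and -0.63 (edgeR's adjusted p of 0.28 to 0.682).

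Rfx6 (ENSMUSG00000019900, chromosome 10, 51677756 to 51730429, plus strand) is a winged-helix factor of endocrine cells in gut and pancreas. It had 31, 43 and 36 reads in the IKO-labelled pools and 57, 55 and 53 in the wt pools. The levels were 0.895, 1.14 and 1.10 CPM against 1.68, 1.45 and 1.45 CPM, again with every IKO-labelled pool below every wt pool. The log2 fold change was -0.55 (SE 0.27, 95% interval -1.18 to 0.09, edgeR's adjusted p = 0.372). Pax6 and Rfx6 were 2 of the 7 tested members with pools that did not overlap in this direction, a pattern that 11.6% of all tested genes had. Neurog3, also without overlap, was outside the genes tested.

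**Figure D2:**
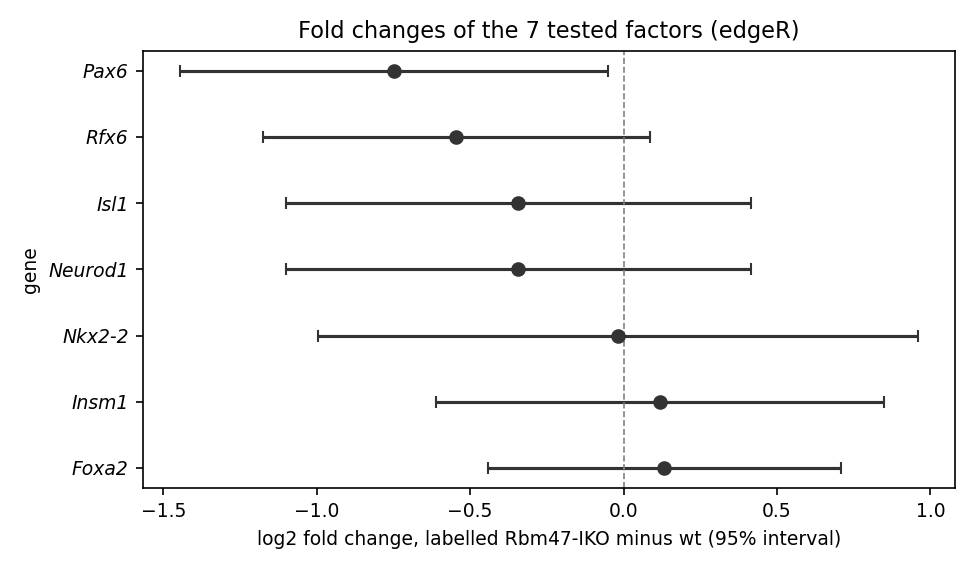
Log2 fold change (horizontal axis, IKO-labelled pools minus wt) of the 7 tested genes from edgeR, with bars for the unadjusted 95% interval. The interval of Pax6 lies below 0, from -1.45 to -0.05, and the other 6 intervals include 0.

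Isl1 (ENSMUSG00000042258, chromosome 13, 116298281 to 116309688, minus strand), a LIM-homeodomain factor of several hormone-producing cells, had 0.607, 1.003 and 0.674 CPM in the IKO-labelled pools. The wt pools had 0.941, 0.949 and 1.02 CPM and lay close together. The second IKO-labelled pool was within the wt range, and the log2 fold change was -0.34 (SE 0.33, edgeR's adjusted p = 0.694). It was -0.60 without IKO-labelled pool 2 and -0.21 without IKO-labelled pool 1.

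Insm1 (ENSMUSG00000068154, chromosome 2, 146221921 to 146225016, plus strand) is a zinc-finger repressor found throughout neuroendocrine differentiation. It had 1.53, 2.32 and 1.44 CPM in the IKO-labelled pools and 2.03, 1.397 and 1.45 CPM in the wt pools. The highest value was in the second IKO-labelled pool, and the groups overlapped. The log2 fold change was 0.12 (SE 0.31, 95% interval -0.61 to 0.85, edgeR's adjusted p = 0.915), and it was -0.13 without the second IKO-labelled pool.

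Nkx2-2 (ENSMUSG00000027434, chromosome 2, 147177546 to 147194243, minus strand), a homeodomain factor that sets hormone choice, had 12, 14 and 7 reads in the IKO-labelled pools and 14, 10 and 10 in the wt pools. The mean level was 0.310 ± 0.0838 CPM (SD, n = 3) against 0.317 ± 0.0826 CPM (SD, n = 3). The log2 fold change was -0.019, and its 95% interval of -0.997 to 0.96 covers changes of about 2-fold either way (fold 0.501 to 1.94). The direction of Nkx2-2 turned with the smooth muscle covariate and with single pools left out. The gene shares 278 exon bases with Nkx2-2os on the opposite strand, which had at most 1 read in a pool.

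Foxa2 (ENSMUSG00000037025, chromosome 2, 148042877 to 148046969, minus strand) is a forkhead factor that is also present in other cells of the gut epithelium. It had 2.46, 2.80 and 1.96 CPM in the IKO-labelled pools and 2.24, 2.35 and 2.003 CPM in the wt pools. The groups overlapped, with a log2 fold change of 0.13 (SE 0.25, 95% interval -0.44 to 0.71, edgeR's adjusted p = 0.869). It was 0.0088 without IKO-labelled pool 2, 0.075 without wt pool 3 and 0.26 without IKO-labelled pool 3. Foxa2 had the most reads of the 9 members and the narrowest interval among the 7 tested.

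On a scale per length, the mean RPKM (the CPM per kilobase of gene length) of the wt pools ran from 0.926 for Foxa2 to 0.0711 for Pax4. Neurod1 had 0.665, Insm1 0.525, Rfx6 0.382, Isl1 0.245, Neurog3 0.208, and Pax6 and Nkx2-2 both 0.110 RPKM. Neighbours in this order overlapped between wt pools for Foxa2 and Neurod1, for Neurod1 and Insm1, for Isl1 and Neurog3, and for Pax6 and Nkx2-2. The wt pools lay apart for the other neighbours, which were Insm1 and Rfx6, Rfx6 and Isl1, Neurog3 and Pax6, and Nkx2-2 and Pax4. The lowest wt pool of Nkx2-2 had 0.0916 RPKM and the highest of Pax4 had 0.0903. Counting error alone was 26.7 to 37.8% for Nkx2-2 and 40.8 to 57.7% for Pax4, so it could change their order. Neurog3 rested on 9, 17 and 9 reads in the wt pools. The order depends on the deposited gene lengths, and that of Pax6 (12744 bases) was the longest of the 9.

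Of 14 other transcription factors used in enteroendocrine cells, 12 were tested, and 0 passed the adjusted threshold of edgeR. Their median log2 fold change was 0.08, with 7 higher and 5 lower point values, and 1 higher and 1 lower had an unadjusted p under 0.05. At that level, 1408 of all 16425 tested genes were higher and 1348 were lower. Rfx3, a relative of Rfx6 that acts in ciliated and islet cells, had 6.71 ± 0.360 CPM (SD, n = 3) in the IKO-labelled pools against 9.72 ± 1.38 CPM (SD, n = 3). Its log2 fold change was -0.53 (edgeR's adjusted p = 0.153), and its pools did not overlap. Foxa1, which acts together with Foxa2, had a log2 fold change of 0.04 (edgeR's adjusted p = 0.948). Tox3 and Sox4 had 0.49 and -0.16 (edgeR's adjusted p = 0.358 and 0.828), and Sox4 had -0.033 without wt pool 1 and -0.35 without wt pool 3. Pdx1, a homeodomain factor of duodenum and pancreas that was picked out after its values were seen, had 20, 29 and 36 reads against 10, 4 and 11. Its log2 fold change was 1.79 (edgeR's adjusted p = 0.11), the highest value in this list, and it was 1.16 (edgeR's adjusted p = 0.21) with the third IKO-labelled pool and the second wt pool left out. The highest level of Pdx1, 1.10 CPM, was in the third IKO-labelled pool, which was also the pool with the highest summed level of pancreatic acinar genes (18.9 CPM) and the only one with reads of Ins2. Without that pool alone, the log2 fold change of Pdx1 was 1.52 (edgeR's adjusted p = 0.261). Plut, an antisense gene that overlaps the Pdx1 span with 0 shared exon bases, had 186, 219 and 219 reads in the IKO-labelled pools. The wt pools had 115, 134 and 126 reads of Plut. The cause of the Pdx1 values was not tested.

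Upstream of Neurog3, 11 of 12 Notch and Atoh1 genes were tested and 0 passed the adjusted threshold of edgeR, while 2 were higher at an unadjusted p under 0.05. Of all 16425 tested genes, 1408 were higher at that level. The median log2 fold change was 0.20, with 9 higher and 2 lower point values. Hes1, the Notch-driven repressor of Neurog3, was also picked out after its values were seen. It had 17.9, 20.6 and 14.8 CPM in the IKO-labelled pools and 11.0, 11.0 and 8.51 CPM in the wt pools. Every IKO-labelled pool was above every wt pool, with a log2 fold change of 0.81 (SE 0.18, edgeR's adjusted p = 0.0613). The value for Hes1 passed the threshold in DESeq2 (adjusted p = 0.00256) and in 4 of the other edgeR alternatives, with adjusted p of 0.0322 to 0.0488 in those 4, and leaving out any single pool put it at 0.0711 to 0.29. Atoh1 had a log2 fold change of 0.30 (edgeR's adjusted p = 0.287), and 0.20 without IKO-labelled pool 2. Dll1, Notch2 and Notch1, a ligand and its receptors, had 0.21, 0.34 and 0.08 (edgeR's adjusted p = 0.372, 0.426 and 0.88), and Notch2 had 0.18 without wt pool 3 and 0.54 without wt pool 2. Of the 9 factors of other secretory lineages, all tested, 0 passed with edgeR, 1 was higher at an unadjusted p under 0.05, and the median was 0.09. The higher gene was Creb3l1, picked out after its values were seen, with a log2 fold change of 0.88 (edgeR's adjusted p = 0.0672). Its level in every IKO-labelled pool was above that in every wt pool. Klf4, Spdef and Foxa3, which act in goblet cells, had 0.27, 0.31 and 0.25 (edgeR's adjusted p = 0.416, 0.471 and 0.479), and Spdef had 0.15 without IKO-labelled pool 1 and Klf4 0.14 without wt pool 1. Spib, a factor of tuft and M cells, had -0.24 (edgeR's adjusted p = 0.813).

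The products of enteroendocrine cells were read from the same fit. Of 18 granule and amine genes, 1 passed the adjusted threshold and was lower, and the median log2 fold change was -0.13. In 10 of the 18, Cpe among them, the highest levels were in the third IKO-labelled pool and the second wt pool, the pools richest in muscle and nerve markers. The called gene was Slc18a1, the vesicular monoamine transporter of serotonin cells, with 9.39, 8.03 and 8.79 CPM in the IKO-labelled pools and 17.2, 16.1 and 16.4 CPM in the wt pools. It fell by 0.92 on the log2 scale (SE 0.13, edgeR's adjusted p = 0.0162). Tph1, the enzyme of serotonin synthesis, named after its value was seen, had -0.71 (edgeR's adjusted p = 0.152), and its pools did not overlap. Chga, the granin by which enteroendocrine cells are stained, had -0.29 (edgeR's adjusted p = 0.371), or -0.19 without IKO-labelled pool 3 and -0.18 without wt pool 1. Chgb had -0.60 (edgeR's adjusted p = 0.178), and it passed without wt pool 1, with -0.80 (edgeR's adjusted p = 0.0411). Ddc, which is also used by enterocytes, had 0.28 (edgeR's adjusted p = 0.309), and Cpe had 0.49 (edgeR's adjusted p = 0.812). The summed CPM of the 9 factors was 19.7, 24.1 and 23.4% of the CPM of Chga in the IKO-labelled pools and 20.2, 23.2 and 21.3% in the wt pools, so that the groups overlapped. Of 12 hormone genes, 10 were tested, 9 had lower point values, 6 were lower at an unadjusted p under 0.05, 6 had pools that did not overlap, and 1 passed the threshold of edgeR. Of all tested genes, 8.21% were lower at that unadjusted level, 11.6% had such pools in this direction and 2.70% passed. Cck, which encodes cholecystokinin and is named after its value was seen, had -1.24 (edgeR's adjusted p = 0.101). Ghrl, which encodes ghrelin, had 1.44, 1.11 and 1.81 CPM against 3.62, 4.58 and 3.62 CPM and fell by 1.44 on the log2 scale (SE 0.27, edgeR's adjusted p = 0.0393). Gip, whose promoter is a target of PAX6, had -0.76 (edgeR's adjusted p = 0.087), and it passed in DESeq2 (adjusted p = 0.00721) and with the smooth muscle covariate (edgeR's adjusted p = 0.0114). Nts, Sct and Sst had -0.49, -0.27 and -0.68 (edgeR's adjusted p = 0.135, 0.641 and 0.237), and without wt pool 2 Sct had -0.0014 and Sst had -0.41. The median over the 10 hormones was -0.67. With 1 pool left out, Slc18a1 had an adjusted p by edgeR of 0.0278 to 0.129 and lost its call without any of the 3 IKO-labelled pools or without wt pool 3, while Ghrl had 0.0652 to 0.212 and lost it in all 6 fits. By GENCODE M21 exons, Ghrl shares 169 exon bases with Gm44033 on the opposite strand, a gene that was not among those counted. Among 8 nutrient and bile acid receptors, 7 were tested, 0 passed with edgeR, 2 were lower at an unadjusted p under 0.05, and the median was -0.18. Over these 6 lists outside the members, 2 genes were called by edgeR and 6 by DESeq2. Ffar2, Ffar3, Ffar4 and Trpa1 had log2 fold changes of 0.50, 0.009, 0.48 and -0.77 (edgeR's adjusted p = 0.392, 0.996, 0.628 and 0.357). Ffar4 had 0.14 without IKO-labelled pool 1 and 0.27 without wt pool 3, and Trpa1 had -0.39 without wt pool 2.

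**Figure D3:**
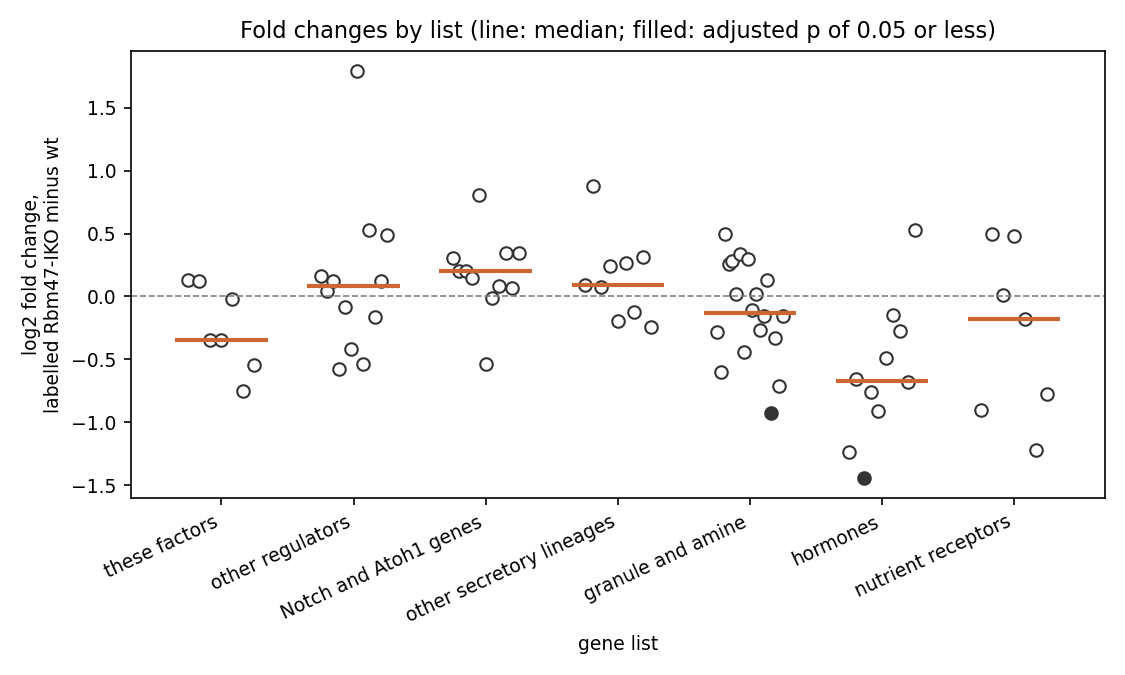
Log2 fold change (vertical axis, IKO-labelled pools minus wt, edgeR) of every tested gene in 7 lists, with a line at each list's median and filled points for an adjusted p of 0.05 or less. The medians are -0.34 for the factors and -0.67 for the hormones, and the filled points are Slc18a1 and Ghrl.

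Several members are also used in neurons and pancreatic islets, so markers of those cells were read in the same pools. The summed CPM of 8 enteric neuron genes was 7.54, 8.61 and 34.0 in the IKO-labelled pools and 8.50, 30.8 and 12.2 in the wt pools. Of these sums, Ret alone made up 2.37, 3.14 and 5.85 CPM in the IKO-labelled pools and 6.76, 8.51 and 7.55 CPM in the wt pools. Ret was thus most of the neuron sum in wt pools 1 and 3. The 6 smooth muscle genes had 361, 586 and 3302 CPM against 90.7, 2803 and 313 CPM. The third IKO-labelled pool and the second wt pool were thus the richest in both lists, and each had the lowest summed level of the 9 factors in its group. The 6 pancreatic acinar genes had 18.9 CPM in the third IKO-labelled pool and 0.290 to 1.06 CPM in the other pools. The 6 islet genes had 0.116, 0.290 and 0.796 CPM in the IKO-labelled pools and 0.588, 0.474 and 0.247 CPM in the wt pools. Among them, Ins2, the insulin gene of islets, had 11 reads in the third IKO-labelled pool and 0 in each of the other 5. Iapp, also counted among the hormones, had 2, 8 and 9 reads in the IKO-labelled pools and 16, 15 and 6 in the wt pools. Mafa had 2 or 3 reads in each pool, and Nkx6-1 had 0 reads in every pool. The 7 enterocyte genes had 31030 to 34647 CPM in the IKO-labelled pools and 32798 to 34392 CPM in the wt pools. With both muscle-rich pools left out, 0 members were called, and the log2 fold change of Rfx6 was -0.63 (edgeR's adjusted p = 0.352). With the summed smooth muscle level as a covariate, Nkx2-2 moved from -0.019 to 0.14, Neurod1 from -0.34 to -0.21 and Insm1 from 0.12 to 0.23, while Pax6 had -0.79 and Rfx6 had -0.53 (edgeR's adjusted p of 0.236 to 0.922 over these 5). Over the 6 pools, which share depth and tissue mixture, Nkx2-2 had a Pearson's r of -0.83 with the muscle and -0.88 with the neuron level, and Neurod1 of -0.69 with the muscle level. Neurod1 had -0.47 with the neuron level, and Insm1 had -0.52 with the muscle and -0.63 with the neuron level. Pax6 had -0.09 with the muscle and 0.36 with the neuron level, and Rfx6 had -0.30 and 0.11. The neuron level includes Ret, which like Pax6 and Rfx6 was lower in every IKO-labelled pool than in every wt pool. Correlations without Ret were not computed, so these values do not show that a member follows nerve content. No fit with a nerve or pancreas covariate was run.

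**Figure D4:**
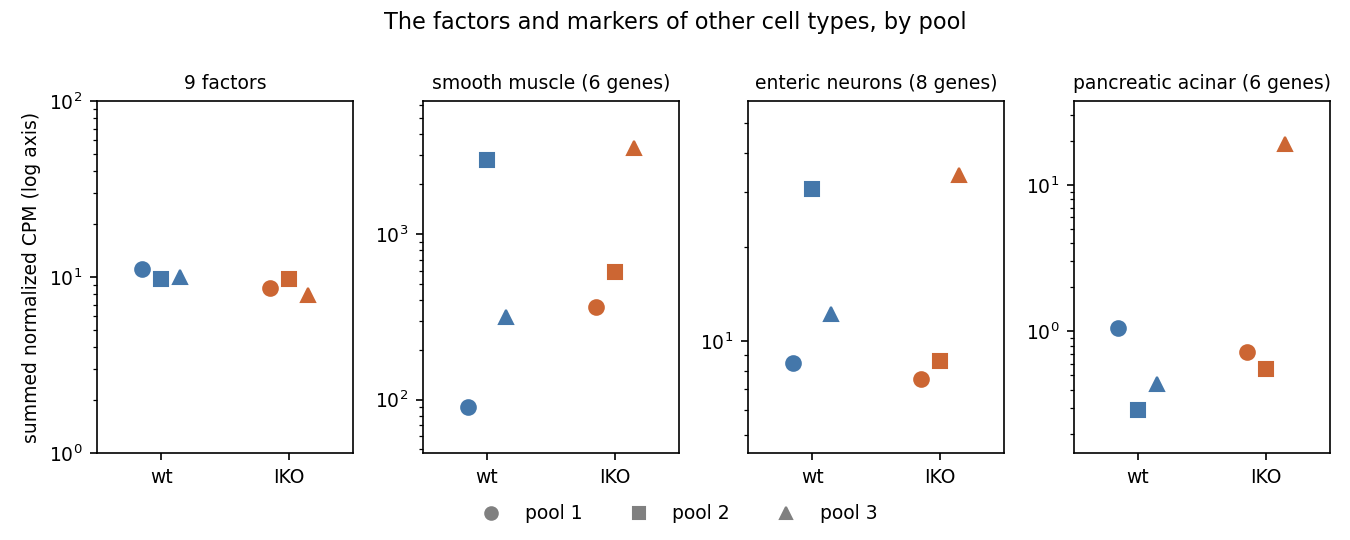
Summed normalized CPM (log axis) of the 9 factors and of markers of smooth muscle, enteric neurons and pancreatic acinar cells in each pool. The factors lie between 7.96 and 11.1 CPM in all 6 pools, while the acinar genes reach 18.9 CPM in 1 IKO-labelled pool and at most 1.06 CPM elsewhere.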

How the data were processed

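Polyadenylated RNA of 6 pools was sequenced on an Illumina HiSeq2000. The authors deposited, for each pool, the read count of each of 38561 Ensembl genes, not normalized, with a CPM column and an RPKM column that were recomputed from the deposited counts and gene lengths and not used further. The submitters' processing notes name STAR 2.5.1a, Subread, featureCounts 1.4.6-p5 and GRCm38. Whether strand was used in counting is not given in the sources used here. The labels give 3 mice per pool and the methods 3 to 4. Symbols came from GENCODE M21 (GRCm38), which matched 36639 genes, and genes without a match held 0.369% of the counts. Positions are those of the tables. Shared exon bases were computed on GENCODE M21 exons, which can differ from the exons counted. These exons span 1079 bases for Ghrl and 1674 for Neurog3, against deposited lengths of 527 and 1540.

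Counts were tested with the quasi-likelihood test of edgeR 4.0.16 in R 4.3.3, with TMM factors, filterByExpr (16425 genes) and Benjamini-Hochberg adjustment over all genes tested, at a threshold of 0.05. CPM in the text uses TMM library sizes, and RPKM is that CPM per kilobase of deposited gene length. Intervals are 95% and not adjusted, and counting errors cover counting only. DESeq2 1.42.0, limma 3.58.1 (voom), other normalizations and filters, a robust fit, a replicate block, a smooth muscle covariate and single pools left out were alternatives. A GC offset (lowess span 0.3) and the removal of both muscle-rich pools were added after the data were seen. The fit was tested on simulated data. Named were all members, Rbm47, the called genes of each list and up to 4 of the highest expressed. Hes1, Pdx1, Plut, Tph1, Cck, Creb3l1 and Fev were chosen after their values were seen, as were the genes of the closing observations that are only markers. The members and lists were chosen with earlier results of these data known. Python 3.11.15 was used for joins, motif searches and plots. Each pool is a separate set of mice, so p-values measure the spread between pools.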

Additional observations from a re-analysis of the deposited data

How the results depend on the processing

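The count of called members was 0 in all 18 alternatives, and at an unadjusted p under 0.05 it was 0 or 1. Of 42 member values with 1 pool left out, 39 kept their direction and 3 turned, and of 82 under the other alternatives 79 kept it and 3 turned. The count of called genes was 443, and it was 1132 with DESeq2, 100 with the replicate block, 711 with the smooth muscle covariate, 270 with the GC offset and 0 to 431 with 1 pool left out, with 0 without IKO-labelled pool 2 (1729 at an unadjusted p under 0.05), 32 without IKO-labelled pool 1, 119 without IKO-labelled pool 3 and 11 without wt pool 3. The count of called genes in the other lists was 2, and it was 6 with DESeq2, 0 with the replicate block, 6 with the smooth muscle covariate and 0 to 3 with 1 pool left out. Rbm47 passed with DESeq2 (0.42) and with library size only (0.41). With the smooth muscle covariate Nkx2-2 turned to 0.14 and Ffar3 to -0.0022, and with both muscle-rich pools left out Nkx2-2 turned to 0.060. With the GC offset Insm1 turned to -0.076, Foxa1 to -0.038, Notch1 to -0.034 and Ffar3 to -0.083, and with upper quartile factors Ffar3 turned to -0.020. Leaving out single pools gave log2 fold changes that ranged from -0.13 to 0.31 for Insm1, from -0.17 to 0.21 for Nkx2-2, from -0.065 to 0.15 for Foxa1, from -0.32 to 0.32 for Ffar3, from -0.19 to 1.49 for Cpe, from -0.063 to 0.21 for Notch1 and from -0.51 to 0.15 for Spib. The cause was not tested. Pools with equal numbers did not all deviate together (correlations of their deviations from the group means of 0.41, -0.0026 and -0.28). Pools with different numbers had correlations of -0.54 to 0.48, so the number was taken as a name only. With the block Pax6 had -0.76 (edgeR's adjusted p = 0.349). At 3 to 106 reads per gene and pool, the depth limits each member, and Neurog3 and Pax4 most.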

Other observations

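Ret, a receptor tyrosine kinase counted here among the enteric neuron markers, had 82, 119 and 191 reads in the IKO-labelled pools and 230, 323 and 275 in the wt pools, a log2 fold change of -1.01 (edgeR's adjusted p = 0.175). The pools did not overlap for Ret, while the other 7 neuron genes were highest in the third IKO-labelled pool, followed by the second wt pool.

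Fev, a factor of serotonin cells that did not pass the filter and was picked out after its values were seen, had 10, 10 and 12 reads in the IKO-labelled pools and 8, 10 and 6 in the wt pools.

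The 5 genes whose log2 CPM over the 6 pools was most like the mean standardized level of the 7 tested factors, among 13284 genes, were Hadhb, Naa20, Prpf8, Shkbp1 and Tpgs2, with Pearson's r of 0.98, 0.97, 0.96, 0.96 and 0.96. Such values are a description over 6 points that share depth and tissue mixture, and the highest of many genes is high by selection.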
